A study of Rattus norvegicus with 8 samples.

Results

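In rats pretreated with cobalt, lung gene expression late in hypobaric hypoxia was set against expression early in it. All 4 cobalt arrays of the series were used, of 8 arrays in all. Early arrays hold lung RNA after 6 and 12 h at a simulated altitude of 30000 ft, and late arrays hold lung RNA after 24 and 48 h. The late-minus-early value of a gene is the mean log2 ratio of the late arrays minus that of the early arrays, where each ratio is hypoxia over 0 h.

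Every rat of these arrays, the 0 h rats included, had received cobalt at 12.5 mg per kg body weight for 7 days. The 0 h RNA, without hypoxia, was in the second channel of all 4 arrays. The arrays share 1 slide and 1 dye orientation, with hypoxia RNA in Cy3, so that what they share of dye, slide and 0 h RNA cancels in the late-minus-early value. Saline rats were given normal saline for 7 days and then the same 4 durations against 0 h RNA of their own. Their 4 arrays serve below as a comparison. They also enter the error of the fit over all 8 arrays, and so the SEs and p-values given for cobalt. The labels give neither the strain, age and sex of the rats, nor the time of day, nor how many animals gave each RNA. Each duration is 1 array, so the spread within the early and late groups contains any change between 6 and 12 h or between 24 and 48 h. The p-values measure only the spread between these arrays, those of saline included.

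Low oxygen stabilises the hypoxia-inducible factors (HIF), which switch on genes for glycolysis, vessel tone, iron handling and red cell formation. Cobalt stabilises the same factors while oxygen is normal, which is why it is given before exposure to altitude as a form of preconditioning. In lung, sustained hypoxia is known for narrowing of the pulmonary arteries and for slower remodelling of vessel walls, whereas the first hours are known for stress and immediate early genes.

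Of 41012 probes, 22947 genes were tested, 11676 of them with a gene symbol. No gene passed limma with Benjamini-Hochberg adjustment in either direction, 0 higher and 0 lower late than early (0% each), and the smallest adjusted p was 0.562. At an unadjusted p under 0.05 there were 2002 genes (8.72%), 768 higher (3.35%) and 1234 lower (5.38%). Both late arrays lay above both early arrays for 5359 genes (23.4%) and below them for 6155 genes (26.8%), and these shares are the background for the gene groups below. Only 71 of the genes without overlap were at least 2-fold higher (0.309%) and 75 at least 2-fold lower (0.327%). The median late-minus-early value was -0.01, and the 5 and 95 percentiles were -0.46 and 0.40, against a median standard error of 0.17. Because nothing passed, the genes and groups below are described by their values, as standing higher or lower, and not as changed.

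Lung markers showed the labelled tissue. Of 12 markers of type I, type II, club and ciliated cells, endothelium, smooth muscle and alveolar macrophages, 10 were tested, and all 10 were well above background in both channels of all 4 arrays. Acta2 and Marco were not tested. The 24 and 48 h arrays were the closest pair, with a median absolute difference of 0.12 in log2 ratio over all genes, and the 6 and 48 h arrays were the farthest apart, at 0.21.

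The 6 h and 48 h arrays each had high ratios of transcripts known from another tissue or cell type, and their source was not tested. On the 6 h array, albumin (Alb), the main plasma protein of the liver, stood at a log2 ratio of 5.50, against 0.97, 0.02 and 0.26 after 12, 24 and 48 h. Alb was not well above background in the hypoxia channel of either late array, so that it was at least 7.24-fold higher early than late. Some other liver transcripts, picked after their values were seen, were also high after 6 h, with the clotting genes Fgb at 2.49 and F2 at 1.73 and the methyltransferase Bhmt at 1.12. A list of 30 hepatocyte genes, put together after these values were seen, had 19 members tested and medians of 0.94, 0.05, 0.07 and 0.10 after 6, 12, 24 and 48 h. Members ranged from -0.97 to 5.50 after 6 h, and 17, 13, 15 and 10 of 19 were above 0 h on the 4 arrays in turn. In 5 of 19 both late arrays lay below both early arrays (26.8% of all genes), and in 1 above (23.4% of all genes). On the 48 h array, red cell genes were high, as given below. In whole lung, more cells of a type and more RNA per cell cannot be told apart. Results are therefore also given without the 6 h and without the 48 h array, a choice made after seeing the data.

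In all, 38 lists naming 732 genes were described, of which 643 genes were tested. The plot of late-minus-early values by list orders them by their medians. Red cell and interferon-stimulated genes had the highest medians, followed at a distance by genes of club cells (0.44), mast cells and eosinophils (0.32), matrix, neutrophils and macrophages. Of 12 club cell genes tested, 5 stood higher late without overlap (23.4% of all genes), and members ranged from -1.46 to 0.95. The median log2 ratio of the club cell list was -0.40, -0.45, -0.25 and -0.61 after 6, 12, 24 and 48 h, lowest on the 48 h array. None of the 9 mast cell and eosinophil genes stood higher late without overlap, and their median was -0.0076 without the 6 h array. Immediate early genes and T cell genes stood lowest.

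Interferon-stimulated genes stood higher late than early in every case. They encode the antiviral effectors and signalling proteins that type I and type II interferons switch on through STAT and IRF transcription factors. All 20 members were tested, and in all 20 both late arrays lay above both early arrays, against 23.4% of all genes. The list median was -0.46 after 6 h, -0.45 after 12 h, 0.54 after 24 h and 0.48 after 48 h, and its median late-minus-early value was 0.82, against -0.01 over all genes. Only 2 of the 20 genes were above their 0 h level after 6 h and 4 after 12 h, whereas 17 were above it after 24 h and again 17 after 48 h.

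Promoters of these genes are shown because many carry the element that interferon-activated factors bind. RefSeq promoter sequences of build GRCr8 were found for 14 of the 20 members. The interferon-stimulated response element was searched as GAAANNGAAA on both strands in the 250 bases before the gene start. It occurred in 9 of the 14 promoters (64.3%) and in 1140 of 33469 promoters of all genes (3.41%). In each stretch of 100 bases below, given along the gene's own strand, capitals mark the match, which is a description of letters and not evidence of binding. The windows lie at chr1:241527226-241527325 (plus strand) for Ifit3, chr1:205800038-205800137 (minus strand) for Irf7, chr12:41330366-41330465 (plus strand) for Oas1a, chr2:243303841-243303940 (minus strand) for Ifi44, chr2:234005627-234005726 (plus strand) for Gbp2 and chr16:18255041-18255140 (minus strand) for Bst2. In Oas1a and Bst2 the capitals hold a pair of matches that overlap each other.
Ifit3: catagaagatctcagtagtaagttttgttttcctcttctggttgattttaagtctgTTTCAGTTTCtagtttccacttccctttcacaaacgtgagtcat
Irf7: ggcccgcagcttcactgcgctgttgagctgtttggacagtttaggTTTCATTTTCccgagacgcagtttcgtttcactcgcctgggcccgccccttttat
Oas1a: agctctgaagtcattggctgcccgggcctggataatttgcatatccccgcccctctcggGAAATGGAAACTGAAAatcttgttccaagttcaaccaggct
Ifi44: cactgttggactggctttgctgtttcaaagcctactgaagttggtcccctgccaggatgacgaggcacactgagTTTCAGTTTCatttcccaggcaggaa
Gbp2: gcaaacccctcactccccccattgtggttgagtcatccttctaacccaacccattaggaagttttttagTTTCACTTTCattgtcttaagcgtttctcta
Bst2: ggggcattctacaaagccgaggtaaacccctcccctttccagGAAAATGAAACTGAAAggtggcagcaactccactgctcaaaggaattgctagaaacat

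Among the signalling members, the transcription factor Irf1 had log2 ratios of -0.30, -0.13, 0.18 and 0.35 after 6, 12, 24 and 48 h. Its late-minus-early value was 0.48 ± 0.15 (SE of the limma fit, unadjusted p = 0.0154, the lowest of the list). Stat2, which carries the signal of type I interferon into the nucleus, had ratios of -0.09, -0.01, 0.64 and 0.50 and a difference of 0.62 ± 0.23. Both genes lay below their 0 h level on the early arrays and above it on the late ones. Irf7, the factor that amplifies interferon production, had ratios of -0.51, -0.29, 0.69 and 0.70, with both late values close together, and a difference of 1.10 ± 0.71.

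The antiviral effectors stood farther apart. Ifi27, a mitochondrial protein much used as an interferon marker, gave -0.23, -0.38, 0.55 and 0.55 and a difference of 0.86 ± 0.35. Ifit1, which binds foreign RNA, gave -0.37, -0.54, 0.30 and 1.91 and a difference of 1.55 ± 0.72, and most of that difference came from the 48 h array. Chosen after their values were seen, Mx2 and Isg15 differed most on the 24 h array. The dynamin-like GTPase Mx2 had ratios of -1.03, -0.63, 1.38 and 0.91 and a difference of 1.98 ± 0.96, and the ubiquitin-like modifier Isg15 had ratios of -0.51, -0.55, 1.51 and 0.62 and a difference of 1.60 ± 1.03. Of the genes whose promoters are printed above, Ifit3 gave -0.55, -0.44, 0.55 and 0.22, Ifi44 -0.98, -0.62, 0.19 and 0.37 and Oas1a 0.34, 0.03, 1.50 and 0.46. All 3 were highest late, Oas1a and Ifit3 after 24 h and Ifi44 after 48 h.

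Members at the edges of the list kept the same order on another level. Bst2, a membrane tether of budding virus, was above its 0 h level throughout, with 1.35, 1.54, 1.96 and 1.56, with a narrow gap between the 12 and 48 h arrays. The GTPase Gbp2 stayed below its 0 h level throughout, with -1.08, -1.12, -0.33 and -0.53, and the chemokine Cxcl10 likewise, with -1.17, -1.54, -0.76 and -0.91. Both of these stood less far below 0 h late than early.

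Since no member overlapped on the 4 arrays, the count had to stay at 20 of 20 without the 6 h or the 48 h array. It therefore says nothing on how far the result depends on either array. The shares of all genes were 36.1% without the 6 h array and 32.0% without the 48 h array. The median difference of the list, which could move, was 0.64 to 0.89 when each array was left out in turn. At an unadjusted p under 0.05 in limma there were 3 of 20 members in the fit over all 8 arrays, against 2002 of 22947 genes (8.72%). With only the cobalt arrays fitted there were 17 of 20 members, against 3397 of 22947 genes, so the count over all genes rose as well. The saline 12 h array, which enters the error of the full fit, had a list median of 1.45, against -0.88, -0.57 and -0.63 on the other saline arrays.

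**Figure D1:**
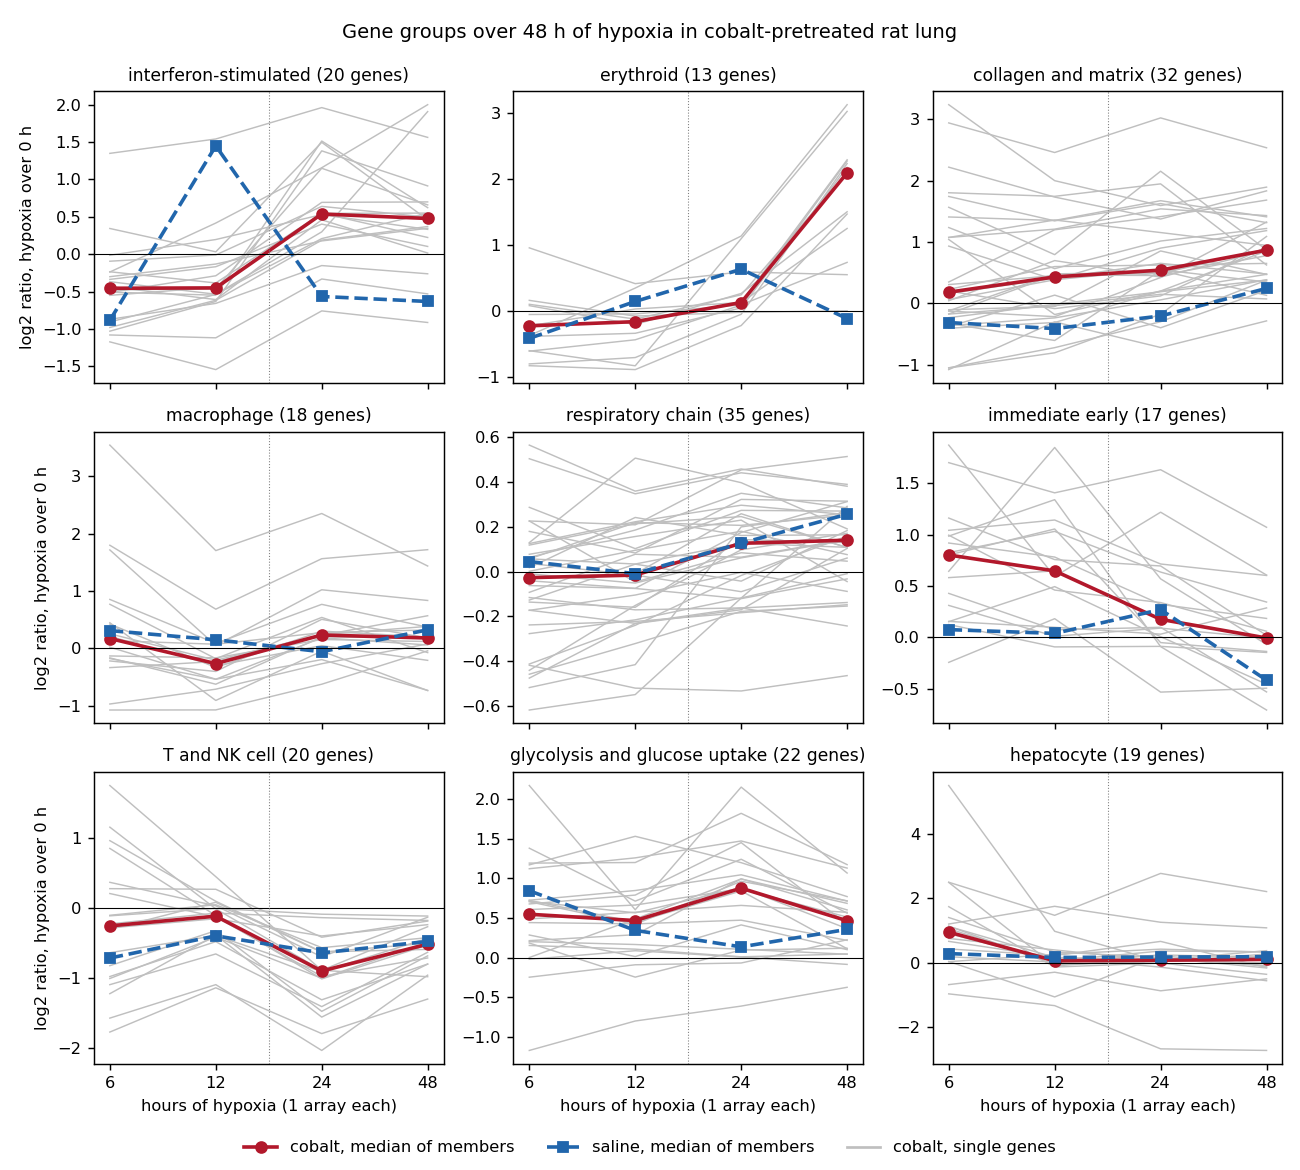
Log2 ratio of hypoxia over 0 h (y axis) after 6, 12, 24 and 48 h (x axis, log spacing, 1 array each) for 9 gene lists. Red circles are the cobalt medians of the list, blue squares the saline medians, grey lines the single genes in cobalt, and the dotted vertical line separates early from late. The interferon-stimulated median steps from -0.45 to 0.54 between 12 and 24 h in cobalt, the erythroid median reaches 2.09 after 48 h, and the immediate early median goes from 0.80 to -0.01.

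Red cell genes stood higher late, and most of their difference came from the 48 h array. They encode globin chains, haem synthesis, the red cell membrane and the factors that commit progenitors to the erythroid line. Of 15 listed genes 13 were tested. In 11 of 13 both late arrays lay above both early ones (23.4% of all genes), with none below (26.8% of all genes). The list median was -0.23, -0.17, 0.12 and 2.09 after 6, 12, 24 and 48 h, and its late-minus-early median was 1.40. Without the 24 h array that median was 2.33, and without the 48 h array it was 0.33. The 24 h array was above both early arrays for 11 of 13 genes (32.0% of all genes), a count that could not fall below the 11 genes without overlap.

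The membrane proteins were among the highest of all genes. The anion exchanger Slc4a1 (band 3) gave ratios of -0.61, -0.84, 1.09 and 3.02 and a difference of 2.78 ± 0.68. The Rhesus protein Rhd gave -0.42, -0.76, 0.94 and 2.22 and a difference of 2.17 ± 0.50. Both genes stood above 0 h on the 24 h array as well as on the 48 h array. The Rhesus-associated glycoprotein Rhag was not well above background on either early array and was at least 1.64-fold higher late.

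Genes of haemoglobin and haem stood above 0 h mainly on the last array. Beta globin (Hbb) had ratios of -0.81, -0.71, -0.05 and 2.23 and a difference of 1.85 ± 0.93. Alas2, the first enzyme of haem synthesis in red cells, had ratios of -0.83, -0.89, -0.23 and 1.47 and a difference of 1.48 ± 0.70. Both were below 0 h on the first 3 arrays and above it after 48 h. Ahsp, the chaperone of free alpha globin, was the exception, with ratios of -0.38, 0.34, 1.13 and 3.13 and a difference of 2.15 ± 0.68, and was already 1.13 above 0 h after 24 h.

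Regulators of the erythroid line showed the same time course at 48 h. Klf1, a transcription factor of globin genes, had ratios of -0.21, -0.17, 0.13 and 2.29, and the nuclear protein Hemgn -0.61, -0.44, 0.08 and 2.27. The erythropoietin receptor Epor overlapped, with 0.16, -0.08, -0.03 and 0.00, and was well above background on 1 early and 1 late array. The transferrin receptor Tfrc, which dividing cells of many types carry, also overlapped, with 0.95, 0.41, 0.59 and 0.55.

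Prdx2 and Alox15, which maturing red cells carry in quantity, also stood higher late. Alox15, a lipoxygenase also found in macrophages and airway epithelium, had ratios of -0.75, -0.40, 1.39 and 3.73 and, at 3.14 ± 0.66, the highest late-minus-early value of any gene with a symbol whose groups did not overlap. The peroxide-reducing enzyme Prdx2 had ratios of -0.30, -0.34, 0.16 and 0.46 and a difference of 0.63 ± 0.14. The lymphocyte antigen Cd52 and the membrane skeleton gene Add2, chosen after their values were seen, stood at 2.88 and 2.81 on the 48 h array. The part of red cells, or of the 48 h array itself, in these values was not tested.

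**Figure D2:**
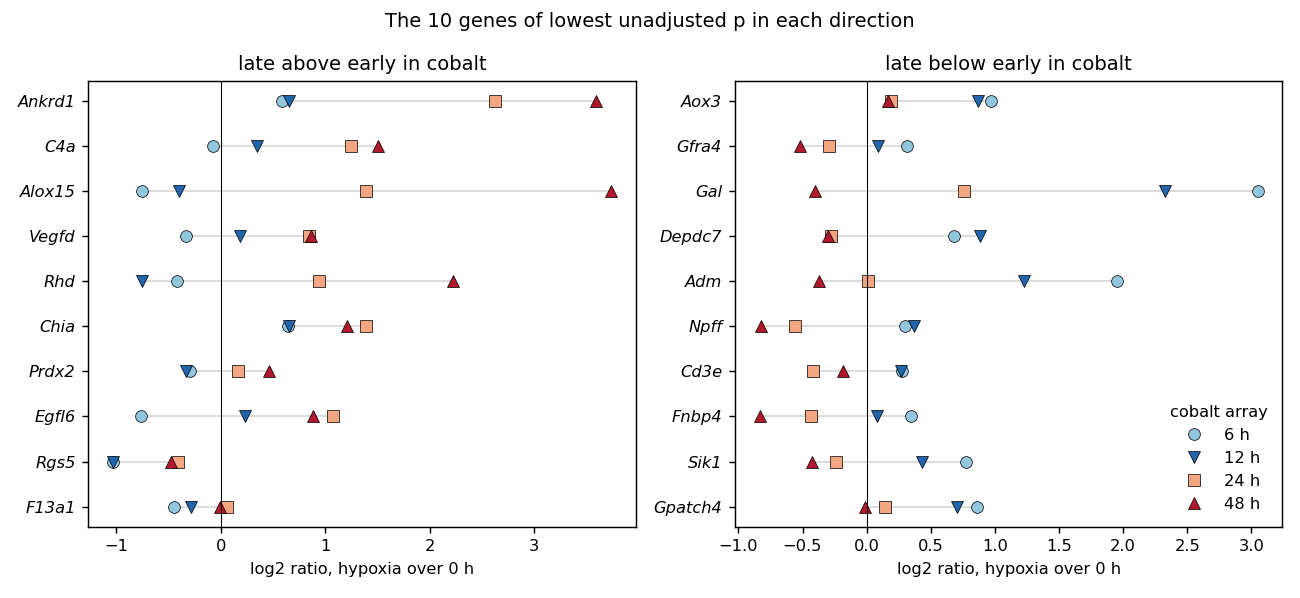
Log2 ratio of hypoxia over 0 h (x axis) on each cobalt array for the 10 genes with the lowest unadjusted p among those higher late (left) and lower late (right), 1 gene per line. Circles are 6 h, down triangles 12 h, squares 24 h and up triangles 48 h, each 1 array. No early and late symbols overlap in any line, which was a condition for choosing the genes; Alox15 and Ankrd1 span the widest range on the left and Gal on the right.

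The 10 genes with the lowest unadjusted p that stood higher late had varied roles, and Alox15, Rhd and Prdx2 among them are given above. Ankrd1, a stretch-responsive ankyrin repeat protein of muscle, had ratios of 0.59, 0.65, 2.63 and 3.59 and a difference of 2.49 ± 0.49. It was above 0 h on all 4 arrays and highest after 48 h. In saline rats Ankrd1 differed by 2.48, from ratios of -0.52, -0.29, 1.30 and 2.86.

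Complement component C4a stood at -0.08, 0.35, 1.25 and 1.50, with a difference of 1.24 ± 0.26. Vegfd, a growth factor of lymphatic vessels, stood at -0.33, 0.18, 0.84 and 0.86, with a difference of 0.93 ± 0.21. The early arrays lay on both sides of the 0 h level in each case and the late arrays well above it. Egfl6, a secreted protein with growth factor-like repeats, gave -0.77, 0.23, 1.07 and 0.88 and 1.25 ± 0.29, and the chitinase Chia gave 0.65, 0.65, 1.38 and 1.21 and 0.65 ± 0.15. The signalling regulator Rgs5, a marker of pericytes, was below 0 h throughout but less so late, with -1.03, -1.03, -0.41 and -0.48 and a difference of 0.59 ± 0.14. F13a1, a clotting factor subunit of macrophages and platelets, was not well above background on either early array and was at least 1.3-fold higher late.

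Collagen and matrix genes stood higher late in 17 of 32 tested members (23.4% of all genes) and lower in 1 (26.8% of all genes), of 33 listed. These genes build and cross-link the fibres around vessels and airways. Their median ratio was 0.18, 0.43, 0.54 and 0.87 after 6, 12, 24 and 48 h, and the late-minus-early median was 0.29. It was 0.26 to 0.42 when each cobalt array was left out in turn and 0.29 to 0.54 over the processing alternatives.

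Of the fibrillar collagens, Col3a1 and Col1a1 were below 0 h early and above it late, and Col5a1 was above it on all 4 arrays. Col3a1 gave -0.41, -0.31, 0.20 and 0.47 and a difference of 0.70 ± 0.26, Col5a1 0.06, 0.38, 0.90 and 1.19 and 0.82 ± 0.26, and Col1a1 -0.13, -0.22, 0.42 and 1.33 and 1.05 ± 0.65. Col1a1 was highest on the 48 h array. Fibronectin (Fn1), laid down early in repair, was instead highest after 24 h, with -0.11, -0.05, 0.85 and 0.47 and a difference of 0.74 ± 0.21. Lumican (Lum), which spaces collagen fibrils, had -1.06, -0.81, -0.18 and 1.09 and a difference of 1.39 ± 0.52. Ltbp2, of the elastic microfibrils, gave 0.10, 0.17, 0.57 and 1.34 and 0.82 ± 0.25.

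The cross-linking enzyme Lox was the 1 matrix gene that stood lower late without overlap. Its ratios were 3.24, 2.00, 1.59 and 1.90, a high level early that stayed well above 0 h late, and its difference was -0.88 ± 0.43. Loxl1 of the same family ran the other way, from 0.35 and 1.20 to 1.41 and 1.68. The matricellular gene Ccn3 was far above 0 h on every array without an order in time, at 2.94, 2.46, 3.03 and 2.54.

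Macrophage genes stood higher late in 8 of 18 tested members (23.4% of all genes) and lower in none (26.8% of all genes), of 20 listed. Cd163, the haemoglobin scavenger receptor, had ratios of -0.18, -0.54, 0.18 and 0.06 and a difference of 0.48 ± 0.13. The scavenger receptor Msr1 had -0.22, -0.40, 0.51 and 0.18 and 0.66 ± 0.20, and Csf1r, the receptor of the macrophage growth factor, had -0.97, -0.71, -0.27 and 0.08 and 0.75 ± 0.27. Siglec1, an adhesion receptor that interferon also induces, was not well above background early and was at least 1.2-fold higher late. Osteopontin (Spp1) overlapped, with 3.55, 1.71, 2.35 and 1.44, its highest value being on the 6 h array. The median difference of 0.25 depended on the early arrays, being 0.55 without the 6 h array and -0.05 without the 12 h array.

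Neutrophil genes stood higher late in 7 of 13 tested members (23.4% of all genes) and lower in 1 (26.8% of all genes), of 18 listed. Their median was 0.25. Itgam, an integrin of myeloid cells, had ratios of -0.22, -0.41, 1.07 and -0.03 and a difference of 0.84 ± 0.43, most of it from the 24 h array. The calprotectin genes S100a8 and S100a9 overlapped, with 0.65, -0.25, 1.11 and 0.64 and 0.69, 0.01, 0.79 and 0.43, since both were also above 0 h after 6 h. The defensin Np4 stood lower late, with 0.82, 0.46, 0.19 and -0.22. The median of the list was 0.09 without the 12 h array and 0.43 without the 6 h array, and 0.18 to 0.51 over the processing alternatives.

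Respiratory chain genes stood higher late by small amounts in 19 of 35 tested members (23.4% of all genes) and lower in none (26.8% of all genes), of 36 listed. They encode the mitochondrial complexes that pass electrons to oxygen and make ATP. The list median was -0.03, -0.02, 0.13 and 0.14 after 6, 12, 24 and 48 h, and the late-minus-early median was 0.09. It was 0.08 to 0.15 when each cobalt array was left out in turn. Ndufs1 of complex I had ratios of -0.52, -0.42, 0.20 and 0.26 and a difference of 0.70 ± 0.25, and the ATP synthase subunit Atp5f1a had -0.62, -0.55, -0.12 and 0.29 and 0.67 ± 0.25. Both were below 0 h early, where the median member was near its 0 h level. Among antioxidant enzymes, glutathione peroxidase Gpx1 gave -0.23, 0.02, 0.47 and 0.56 and catalase (Cat) -0.59, -0.54, -0.18 and 0.03, with differences of 0.62 ± 0.19 and 0.49 ± 0.16. Of the 21 antioxidant genes tested, 5 stood higher late (23.4% of all genes) and 7 lower (26.8% of all genes). Their median was 0.10, which was 0.0094 without the 6 h array and 0.015 without the 24 h array.

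Immediate early genes were those that most stood lower late. These transcription factors and phosphatases answer a stimulus within minutes and need no new protein for it. Of 18 listed genes 17 were tested, and in 11 of 17 both late arrays lay below both early arrays, against 26.8% of all genes, with none above. Median ratios were 0.80, 0.65, 0.18 and -0.01 after 6, 12, 24 and 48 h, and the late-minus-early median was -0.48. That median was -0.32 without the 48 h array and -0.62 without the 24 h array. Of the 17 genes, 16 were above 0 h after 6 h and again 16 after 12 h, against 13 after 24 h and 8 after 48 h. Without the 6 h array 11 of 17 stood below the 12 h array (39.5% of all genes), and without the 48 h array 12 of 17 stood lower on the 24 h array (36.1% of all genes). Neither count could fall below the 11 genes without overlap.

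The zinc finger factor Egr1, the most different member, had ratios of 0.99, 1.34, -0.09 and -0.71 and a difference of -1.56 ± 0.53. The orphan nuclear receptor Nr4a1 had 0.80, 1.05, -0.05 and -0.14 and -1.02 ± 0.36. Fos, of the AP-1 complex, had 0.64, 1.85, 0.57 and -0.07 and -0.99 ± 0.53. In these 3 genes the 12 h array was the highest. Myc, a driver of growth, with 1.16, 0.76, 0.70 and 0.02, and the antiproliferative Btg2, with 0.99, 0.46, 0.34 and 0.06, were instead highest after 6 h and lowest after 48 h, at differences of -0.60 ± 0.27 and -0.53 ± 0.25. Junb and Nr4a3 overlapped, with 1.70, 1.41, 1.63 and 1.07 and 1.87, 0.59, 1.22 and 0.61, and were above 0 h on every array. The serum response element of these genes, the CArG box, was searched by name in 11 promoters of the list and occurred in 4 (36.4%), against 1.50% of all promoters.

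Adrenomedullin (Adm), a vasodilator peptide and a HIF target, stood lower late by the largest amount of its list. Its ratios were 1.95, 1.23, 0.01 and -0.37, so that it was above 0 h early and at or below it late, and the difference was -1.77 ± 0.38. In saline rats the ratios were 0.55, 1.09, 1.24 and 0.18, a difference of -0.11. Apelin (Apln), another vasodilator peptide, was near 0 h after 6 h and below it on the other 3 arrays, with 0.04, -0.33, -2.19 and -0.82 and -1.36 ± 0.48. Endothelin (Edn1), a constrictor, was below 0 h throughout and lowest after 48 h, with -0.35, -0.82, -0.94 and -1.80 and -0.79 ± 0.35.

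Neuropeptides were also among the genes of lowest p. Galanin (Gal), a peptide of sensory and autonomic nerves, had ratios of 3.05, 2.33, 0.76 and -0.40 and a difference of -2.51 ± 0.53. Its ratios ran from the highest to the lowest in order of time, and the saline arrays gave 3.45, 2.30, 0.80 and -0.17. Npff, which modulates pain and blood pressure, had 0.30, 0.37, -0.56 and -0.82 and a difference of -1.03 ± 0.23. Gfra4, a receptor subunit of the GDNF family, had 0.31, 0.09, -0.29 and -0.52 and -0.61 ± 0.12.

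The other genes of lowest p that stood lower late had varied roles. The aldehyde oxidase Aox3 had the lowest unadjusted p of the genes with a symbol that stood lower, with ratios of 0.97, 0.87, 0.19 and 0.17 and a difference of -0.74 ± 0.11. The kinase Sik1, which cyclic AMP induces, had 0.77, 0.43, -0.24 and -0.43 and -0.94 ± 0.21. Both were above 0 h early. Fnbp4, a formin-binding protein, had 0.35, 0.08, -0.44 and -0.83, Gpatch4, a nucleolar protein, 0.86, 0.71, 0.15 and -0.02, and Depdc7 0.68, 0.88, -0.28 and -0.30. Of the stress response, the transcription factor Atf4 had 1.38, 0.96, 0.48 and 0.13 and a difference of -0.86 ± 0.27, while the chaperones Pdia3 and Calr stood higher late, by 0.66 ± 0.27 and 0.48 ± 0.23.

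T cell genes stood lower late, whereas genes of killing did not separate. Of 22 listed T and NK cell genes 20 were tested. In 9 of 20 both late arrays lay below both early arrays (26.8% of all genes), with none above (23.4% of all genes). Of these 9, Cd3d, Cd3e and Cd3g belong to the T cell receptor complex, Cd8a and Cd8b to its co-receptors and Lck and Zap70 to its signalling. The others, Cd2 and Cd5, are surface receptors. Cd8b, a co-receptor chain of cytotoxic T cells, had ratios of 1.75, 0.45, -0.89 and -0.27 and a difference of -1.68 ± 0.41. Its partner Cd8a had 0.85, -0.11, -1.01 and -0.53 and -1.14 ± 0.31, and Cd3d had 1.15, -0.01, -0.89 and -0.98 and -1.51 ± 0.47. Each was highest on the 6 h array, where the liver transcripts were also high. Cd3e had 0.28, 0.27, -0.42 and -0.19, with early values close together, and -0.57 ± 0.13.

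Perforin (Prf1), granzyme A (Gzma) and Nkg7, which cytotoxic cells use to kill, were below 0 h on all 4 arrays and overlapped. Prf1 had -1.10, -0.66, -1.41 and -0.63, Gzma -1.57, -1.10, -2.04 and -0.96 and Nkg7 -0.98, -0.48, -1.31 and -0.80. The helper co-receptor Cd4 was not well above background in the hypoxia channel of any array. Over the list, median ratios were -0.26, -0.12, -0.90 and -0.52 after 6, 12, 24 and 48 h and the late-minus-early median was -0.41. Without the 6 h array it was -0.56, with 18 of 20 genes lower late (39.5% of all genes). Without the 48 h array it was -0.64, but it was -0.17 without the 12 h array and -0.09 without the 24 h array. The part of the 6 h and 24 h arrays in this difference was not tested.

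Median ratios of glycolysis and of the wider HIF programme stood above 0 h on all arrays, without a clear order in time. Of 22 glycolysis and glucose uptake genes, 5 stood higher late (23.4% of all genes), 2 lower (26.8% of all genes) and 15 overlapped. The list medians were 0.55, 0.47, 0.88 and 0.47. The 24 h array was the highest, and the late-minus-early median of 0.10 turned to -0.08 without it. Without the 48 h array the median was 0.25, and the 24 h array was above both early arrays for 15 of 22 genes (32.0% of all genes). Phosphoglycerate kinase Pgk1 had 0.21, 0.29, 1.00 and 0.60 and a difference of 0.55 ± 0.22, and aldolase Aldoc had 0.00, 0.49, 0.99 and 0.69 and 0.59 ± 0.22. The glucose transporter Slc2a1 overlapped, with 1.38, 0.71, 1.24 and 0.56, as did the lactate exporter Slc16a3, with 2.17, 0.60, 2.15 and 1.07.

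Of 27 other HIF targets tested, of 30 listed, 4 stood higher late (23.4% of all genes), 5 lower (26.8% of all genes) and 18 overlapped. Their median late-minus-early value was -0.02. Without the 6 h array the median was 0.15, with 16 of 27 above the 12 h array (36.1% of all genes) and 6 below it (39.5%), and it was -0.09 without the 12 h array. The mitophagy gene Bnip3 had 1.42, 0.90, 1.22 and 0.74 and the haem oxygenase Hmox1 1.24, 0.68, 1.74 and 0.75, above 0 h on all arrays. The angiogenic factor Vegfa stayed near 0 h throughout, with -0.07, 0.19, -0.13 and 0.21 and a difference of -0.02 ± 0.19. The prolyl hydroxylase P4ha1, which collagen needs, stood higher late, with 0.06, 0.12, 0.78 and 0.28.

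Smooth muscle genes were above 0 h throughout, with list medians of 0.84, 1.04, 1.44 and 1.27 over 13 of 15 listed genes. In 5 of 13 both late arrays lay above both early ones (23.4% of all genes), and in none below (26.8% of all genes). Smooth muscle myosin Myh11 had 0.69, 0.85, 1.44 and 1.26 and a difference of 0.58 ± 0.23, and the light chain Myl9 had 0.29, 0.89, 1.00 and 1.36 and 0.59 ± 0.22. The median difference was 0.14, the lowest of 0.14 to 0.63 over the processing alternatives, and it was -0.09 without the 24 h array and 0.34 without the 48 h array. Ribosomal protein genes, a group of even and high expression, had list medians near 0 h on all arrays, though single members ranged from -0.90 to 0.92. Of these 25 genes, 12 lay lower late (26.8% of all genes) and 3 higher (23.4% of all genes). Their median difference was -0.06, and -0.12 to -0.035 when each array was left out in turn.

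Endothelial and surfactant genes were mixed. The TGF-beta co-receptor endoglin (Eng) stood higher late, with -0.45, -0.29, 0.23 and 0.05 and 0.51 ± 0.16, and the VEGF receptor Kdr lower, with 0.00, 0.17, -0.69 and -0.44 and -0.65 ± 0.21. Of 28 endothelial genes tested, 8 stood higher (23.4% of all genes) and 3 lower (26.8% of all genes). Their median was 0.07 (0.043 to 0.12 when each array was left out in turn). The surfactant proteins Sftpb and Sftpc, made by type II cells, stood lower late while above 0 h, with 1.19, 0.99, 0.71 and 0.13 and 1.65, 1.64, 1.43 and 0.96. Of the 15 type II cell genes, 2 stood higher and 4 lower, which is not above these shares of all genes. Their median was -0.10 (-0.19 to -0.037 when each array was left out in turn).

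Single clock genes stood higher late and others lower. The repressor Nr1d1 (REV-ERB alpha) had ratios of -0.82, 0.15, 1.28 and 1.39 and a difference of 1.67 ± 0.42, and Dbp, a clock output factor, had -2.13, -0.54, 0.18 and -0.02 and 1.42 ± 0.65. Their opposite partner in the cycle, the activator Bmal1, had 2.15, 0.70, 0.22 and 0.15 and -1.24 ± 0.51. The repressor Cry1 stood at 0.36, 0.20, -0.62 and -0.78 and Nfil3, which competes with Dbp, at 1.36, 0.52, 0.32 and 0.14. Of 15 clock genes tested, of 19 listed, 6 stood higher late (23.4% of all genes) and 3 lower (26.8% of all genes). The other 6 overlapped, Per1 and Per2 among them. The 6 h array was the farthest from 0 h for Bmal1 and Dbp. The labels do not give the time of day at which lungs were taken, so time of day and duration of hypoxia cannot be told apart.

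Whether the difference between late and early hypoxia was particular to cobalt was tested against the same difference in saline rats, which have 0 h RNA of their own. No gene passed limma with Benjamini-Hochberg adjustment (0 of 22947, 0%; smallest adjusted p = 0.612), and 1300 genes had an unadjusted p under 0.05 (5.67%). The lowest p-values of genes with a symbol were those of Akap5, a scaffold of signalling kinases, Ifitm3, an interferon-induced block to viral entry, and Nedd9, an adhesion scaffold. Akap5 differed by -1.78 ± 0.25, from -0.23 in cobalt and 1.55 in saline. Ifitm3 differed by 1.54 ± 0.24, from 0.42 in cobalt and -1.13 in saline, and Nedd9 by -1.30 ± 0.23, from -0.45 and 0.85. The adjusted p of each of the 3 was 0.876 in the limma fit.

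**Figure D3:**
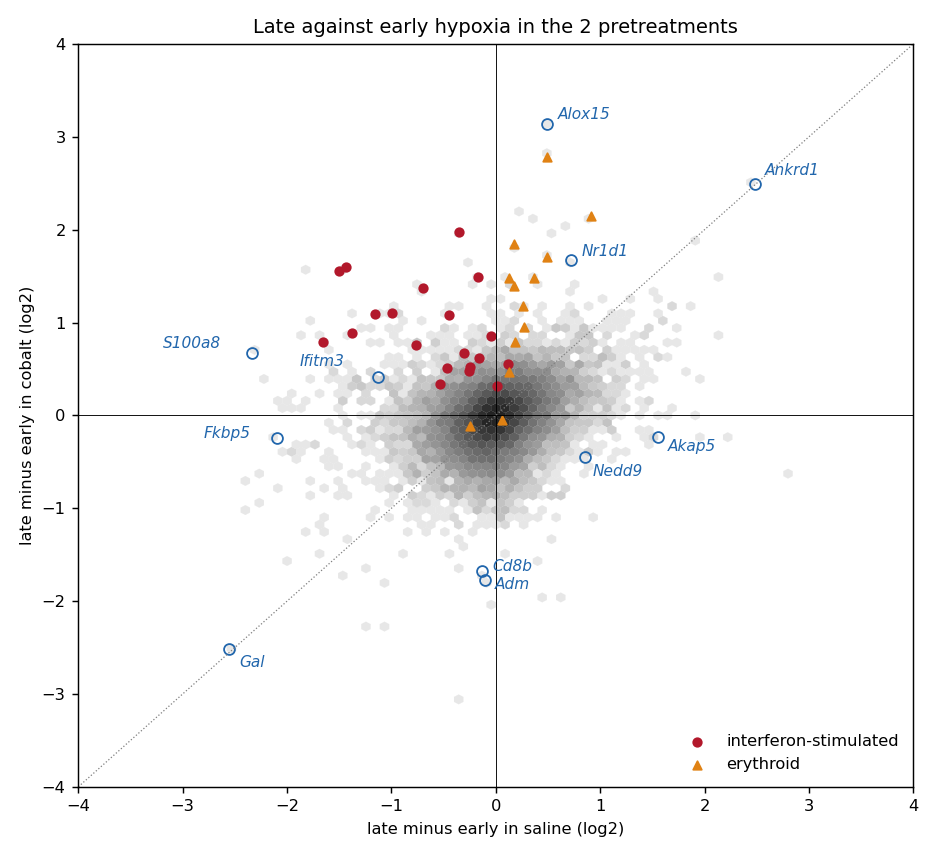
Late-minus-early value in saline (x axis, log2) against that in cobalt (y axis, log2) for 22947 genes, shaded by the number of genes per cell on a log scale (darker is more), with interferon-stimulated genes as red circles, erythroid genes as orange triangles and some named genes as open circles. The dotted diagonal marks equal values. Gal and Ankrd1 lie on the diagonal, whereas most interferon-stimulated genes lie above 0 in cobalt and below 0 in saline.

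Across all 22947 genes the late-minus-early values of cobalt and saline had a Pearson correlation of 0.28, a description across genes, which are not independent, and 60.3% had the same sign. Of the 146 genes without overlap and at least 2-fold apart in cobalt, 97 had the same sign in saline (66.4%). Gal, at -2.51 in cobalt and -2.56 in saline, and Ankrd1, at 2.49 and 2.48, were nearly equal. Matrix genes had similar medians, at 0.29 in cobalt and 0.24 in saline, as did the respiratory chain, at 0.09 and 0.07.

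Other groups had medians of unlike size or sign, a difference that was not tested for lists. Interferon-stimulated genes had a median of 0.82 in cobalt and -0.46 in saline, where the 12 h array stood at 1.45 and no member had both late arrays above both early ones (18.6% of all genes in saline). Erythroid genes had 1.40 and 0.19, T and NK cell genes -0.41 and -0.01, and immediate early genes -0.48 and -0.07. Neutrophil genes had 0.25 in cobalt and -0.53 in saline, with S100a8 at 0.67 and -2.34. Glycolysis had 0.10 in cobalt and -0.31 in saline, where 12 of 22 genes had both late arrays below both early ones (17.2% of all genes in saline). Fkbp5, a chaperone of the glucocorticoid receptor, had -0.25 in cobalt and -2.10 in saline. Slide, dye orientation and pretreatment coincide in the series and cannot be told apart in these comparisons, although what the arrays of a slide share cancels within each pretreatment.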

How the data were processed

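The 8 arrays are Agilent 4x44K whole rat genome arrays with a hypoxia channel and a 0 h channel, whose dyes the labels give. Per the file headers, Feature Extraction 9.5.1.1 made the scanner files on a design of genome build rn3. Mean signals and local backgrounds were deposited as intensity. The deposited LogRatio column is log10 of the red over the green signal after the software's own corrections. The deposited series matrix gives log2 ratios whose direction, hypoxia over 0 h, was found by setting them against the scanner ratios.

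Here intensities were corrected by normexp (offset 50) and loess (limma 3.58.1, R 4.3.3) and turned to hypoxia over 0 h. Probes had to be well above background in 1 channel or the other on 2 or more of the 4 cobalt arrays, which 27254 of 41012 were (27163 with a value on every array). The brightest probe stood for each of 3423 genes with several. Names came from RefSeq for 10811 probes by accession, 5562 by symbol and 3717 by synonym, and 20922 kept the name in the file. Early and late means of each pretreatment were fitted over all 8 arrays (4 residual degrees of freedom) with limma's variance trend, and Benjamini-Hochberg adjusted p under 0.05 was called. A gene below background on all arrays of a group has only a bound on its fold, taken against the dimmest signals well above background. The fit was tested on simulated data.

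Genes were named by rule: the 10 of lowest p without overlap in each direction, up to 4 per list, the 3 of lowest p in the difference from saline, and a short set of hypoxia, clock and cell type genes. Further members illustrate their lists and were chosen after their values were seen. Members and lists were chosen with earlier results of these data known. Alternatives were the software's ratios, other normalizations, filters, probes, fits and time contrasts, and leaving out each array. Promoter sequences are from RefSeq (GRCr8).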

Additional observations from a re-analysis of the deposited data

Results flagged for a closer look

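For 2 gene lists, both late arrays had a higher list median than both early arrays in cobalt and a lower one in saline. The median late-minus-early value of antigen presentation genes, which load peptides onto MHC molecules, was 0.15 in cobalt and -0.20 in saline, over 14 of 16 listed genes. The transporter Tap1 had ratios of -0.60, -0.56, 0.10 and 0.29 in cobalt and -1.06, 0.08, -0.77 and -0.53 in saline after 6, 12, 24 and 48 h. The median of heat shock and unfolded protein response genes was 0.036 in cobalt and -0.50 in saline, over 23 of 26 listed genes. Calreticulin (Calr) had ratios of 0.45, 0.49, 0.82 and 1.08 in cobalt and 0.31, 0.29, -0.51 and 0.21 in saline. The difference of these lists between the pretreatments was not tested, and the cobalt median of the heat shock list was -0.019 without the 6 h array.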

How the results depend on the processing

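In 13 processing alternatives and 8 that left out 1 array each, 0 genes were called in most settings. The exceptions were 1 higher without the 48 h array, 2 lower without the 12 h array (Alb and Fgb, with Fgb at -2.50) and 2 lower with a slope over log2 hours (Gal at -1.19 per doubling of time, and a transcript without a symbol). Leaving out arrays in turn gave 0 to 1 higher, 0 to 2 lower and 0 to 32 genes in the difference between pretreatments. The 32 came without the saline 6 h array, where the 12 h array stands alone for early saline, all higher and 9 of them interferon-stimulated, and 1 gene (Alb) was called there without the cobalt 12 h array. With an unadjusted p under 0.05, 446 genes (without the 48 h array) to 3397 (cobalt arrays only) were counted, against 2002. Of 3992 alternative values of 191 named genes 7 were counted as reversed, in 5 genes. A reversal was counted only for the 158 named genes whose main value lay over 1 SE from 0. Changes of sign in the other named genes are not in this count. Ckm was at -0.019 without the 24 h array and -0.019 to 0.52 over the arrays left out, and Des at -0.0045 with the slope and -0.0155 to 0.43. Fgb was at 0.093 without the 6 h array and -2.50 to 0.093 over the arrays left out, Kng1 at -0.0076 without the 12 h array and -0.0076 to 1.02, and Fst at 0.20 with scaling between arrays. Of the 418 alternative values of the 20 genes of lowest p, 0 reversed. With an array left out none could reverse, because these genes were chosen without overlap of early and late arrays. The interferon-stimulated median was 0.77 to 1.06 and the erythroid median 1.16 to 2.19 over the processing alternatives other than the slope, which has another unit. The cause of these changes was not tested. The labels give no replicate numbers, and within cobalt each duration is 1 array. In the cobalt-minus-saline difference the arrays of a duration can be paired, and with duration as a replicate block, an alternative added after seeing the data, 0 genes were called (smallest adjusted p = 0.859 in limma, 2 residual degrees of freedom) and 1315 had an unadjusted p under 0.05, against 1300. Deviations of same-duration arrays correlated at -0.078 in the early and 0.15 in the late groups, a description across genes. Genes not well above background have only bounds.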
